A study of Rattus norvegicus with 6 samples.

Results

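The dual-specificity MAP kinase phosphatases are enzymes that switch off the mitogen-activated protein kinases (MAP kinases) ERK, p38 and JNK by removing phosphate from both the threonine and the tyrosine of the kinase's activation loop. The 10 genes described here, Dusp1, Dusp2, Dusp4, Dusp5, Dusp6, Dusp7, Dusp8, Dusp9, Dusp10 and Dusp16, were taken as a family by name, and array probes were assigned to them through the mRNA accession that each probe carries. Of the 10, 8 had a probe, among 13886 protein-coding genes with a symbol and a probe; Dusp4 and Dusp7 were not analysed here. Each of the 8 genes was read by 1 probe, printed as 1 spot per array. Of these 8 genes, 6 were well above background in all 6 scans and were tested, and Dusp2 and Dusp9 were too dim.

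The series measured RNA of H9c2, a rat cell line of embryonic heart origin with properties of muscle precursors, in 3 H/R samples and 3 control samples. H/R stands for hypoxia/reoxygenation: cells without serum and glucose were held at 1% oxygen, 5% carbon dioxide and 94% nitrogen for 1 h and then returned to normal oxygen for 3 h. Control cells stayed at normal oxygen. Before the experiment both groups grew in DMEM that held 10% serum and, per litre, 4500 mg of glucose. Which medium the control cells had during the experiment is not in the labels, so low oxygen, its reversal and the loss of serum and glucose cannot be told apart. All samples come from 1 cell line with no genetic change named in the labels. Replicates 2 and 3 of each group shared an array position and differed in scan, and each such pair shared 36 spots with uneven local background, against at most 1 in any other pair of files. They were averaged and counted as 1 array, which leaves 2 arrays per group. The labels name no separate cultures, and p-values therefore reflect only how far these arrays spread, possibly for technical reasons. A protocol text in the labels names mouse cortex as the RNA source, against the rat cell line that all other labels give.

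Of 14 muscle and heart marker genes with a probe, all 14 were well above background in every scan, and 3 were higher and 1 was lower in H/R (median log2 change 0.15). The summed signal of the list was 3205 to 3662% of the array's 75th percentile in H/R scans and 3071 to 3396% in control scans. The myoblast regulator gene Myod1 fell by 1.48 on the log2 scale (limma adjusted p = 0.00814), and the cardiac troponin gene Tnnt2 was 2.18-fold higher (limma adjusted p = 0.00381). Des, the muscle intermediate filament gene, was read at 72.4, 272 and 278% in H/R replicates 1 to 3 and at 76.1, 96.2 and 102% in control replicates 1 to 3, so H/R array 2 stood apart for that gene. Among the markers it also stood apart for Myh7 and the fibroblast marker Pdgfra. Of 14 leukocyte markers 4, Ptprc, Adgre1 and Itgam among them, were not well above background in any scan, and 8 were in all 6, such as Cd3e (31.2 to 32.2% in H/R, 27.5 to 30.6% in control) and Fcer1g (32.8 to 35.2% in H/R, 26.7 to 27.8% in control). The list, in which 1 of 9 tested genes was higher and 0 were lower, summed to 116 to 119% in H/R scans and 99.6 to 112% in control scans. The higher gene, Cd74, was dim (1.85 to 1.94% in H/R, 0.556 to 0.800% in control). It was tested only through its H/R scans, since 2 of 3 control scans were well above background. Of 4 endothelial markers with a probe 2 were not well above background in any scan, 1 was higher and 0 were lower, with sums of 11.9 to 14.0% in H/R and 6.89 to 7.32% in control. Of 5 fibroblast markers tested 2 were higher and 0 were lower, with sums of 4710 to 4929% in H/R and 3624 to 4356% in control. Over all protein-coding genes tested, 16.2% were higher and 9.61% were lower, and whether any marker list departs from these shares was not tested. The part of the marker changes in the phosphatase results was not tested either. Fewer cells of a type and less RNA per cell cannot be told apart in bulk RNA.

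Members of the family differ in the kinase they act on and in where they act. Dusp5 (nuclear) and Dusp6, Dusp7 and Dusp9 (cytoplasmic) act mainly on ERK and are called ERK-directed below. Dusp8, Dusp10 and Dusp16 act mainly on p38 and JNK. Dusp1, Dusp2 and Dusp4 are nuclear, act more broadly across these kinases and were put in neither class. Several of the genes are themselves transcribed when a MAP kinase pathway is active, through factors such as SRF, CREB, AP-1 and ETS proteins, and so form negative feedback loops. In heart muscle, ERK signalling is known for its part in growth and survival, and p38 and JNK for their part in the response to stress.

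The promoters of Dusp6, Dusp5 and Dusp1 are shown because the data below place these genes at the far ends of the family. The sequences are those of RefSeq on the GRCr8 rat assembly, from 250 bases before the annotated start, 5′ to 3′ on the plus strand, which is the gene's strand in all 3. That of Dusp6 (chr7:35979354-35979501) stops after 148 bases, where the first annotated transcript of the gene begins. Dusp5 lies at chr1:262543524-262543773 and Dusp1 at chr10:17184603-17184852. Capitals mark CArG boxes, the binding motif of SRF, in Dusp5, and the cAMP response element TGACGTCA in Dusp1.
Dusp6 promoter: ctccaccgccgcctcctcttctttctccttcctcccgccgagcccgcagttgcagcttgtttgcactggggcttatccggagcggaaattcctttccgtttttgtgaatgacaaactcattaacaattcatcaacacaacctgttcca
Dusp5 promoter: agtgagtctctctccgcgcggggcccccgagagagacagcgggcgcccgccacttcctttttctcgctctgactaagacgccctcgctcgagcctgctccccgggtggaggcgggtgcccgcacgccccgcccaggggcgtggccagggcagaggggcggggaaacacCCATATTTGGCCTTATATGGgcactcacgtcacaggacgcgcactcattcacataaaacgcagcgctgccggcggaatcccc
Dusp1 promoter: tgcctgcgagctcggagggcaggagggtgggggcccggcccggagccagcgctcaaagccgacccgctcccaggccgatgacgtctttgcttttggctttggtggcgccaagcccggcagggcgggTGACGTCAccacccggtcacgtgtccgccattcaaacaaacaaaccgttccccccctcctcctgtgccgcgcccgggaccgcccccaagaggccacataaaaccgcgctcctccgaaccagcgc

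Both strands of up to 250 bases before the start were searched in the 9 members with a promoter entry (the exception is Dusp4) and in 27457 promoters in all. Dusp5 held 2 CArG boxes side by side, starting 82 and 72 bases before the start, and no other member held one, against 1.5% of all promoters. Dusp1 held 1 match to TGACGTCA, starting at position -124 relative to the start, against 1.7% of all promoters, and no other member held that one either. The EGR motif GCGNGGGCG matched in Dusp2, Dusp5, Dusp8 and Dusp16 (4.53% of all promoters), and the HIF core ACGTG, the letters bound by hypoxia-inducible factor, in Dusp1, Dusp2 and Dusp5 (16.9%). The AP-1 motif TGANTCA (6.36%) and the ETS motif CCGGAA (13.4%) matched in 0 of the 9. Dusp6 matched none of the 6 motifs, in a window of only 148 bases. None of these motifs contains another, and a match is a description of the letters, not a site in use.

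In H/R 4 of the 6 tested members fell (Dusp6, Dusp5, Dusp10 and Dusp8) and 0 rose, and their median log2 change was -0.61. Dusp16 and Dusp1 did not pass. Over all 9998 protein-coding genes tested, 9.61% fell and 16.2% rose, and the median change was 0.07. Over all 15899 probes tested, non-coding RNA included, 8.87% fell and 14.8% rose. All tests are limma with Benjamini-Hochberg adjustment over all these probes and a threshold of 0.05. In 5 of the 6, Dusp16 included, every H/R scan lay below every control scan, as in 27.9% of all genes tested, and in Dusp1 every H/R scan lay above, as in 38.2%. Levels below are percentages of the array's 75th percentile of probe signal, and changes are log2 differences, H/R minus control, with the moderated SE and n = 2 arrays per group.

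**Figure D1:**
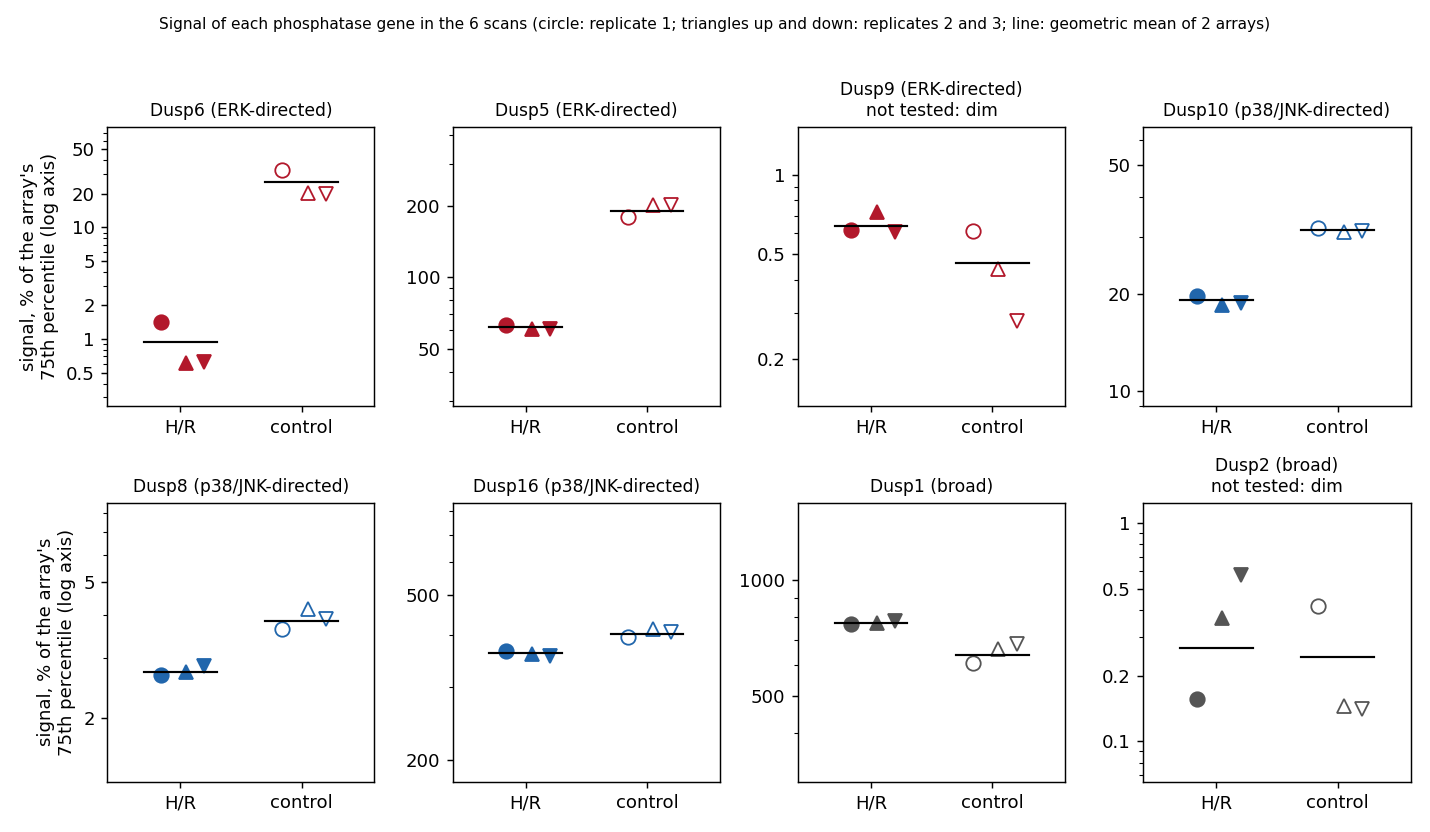
Signal of the 8 measured genes in each scan, as a percentage of the array's 75th percentile on log axes that differ between panels, with H/R (filled) left of control (open) and lines at the geometric mean of 2 arrays. Dusp6 shows the widest gap (0.613 to 1.41% in H/R, 20.0 to 32.5% in control), and the scans of Dusp2 overlap between groups.

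Dusp6, which encodes the cytoplasmic ERK phosphatase MKP-3, showed the largest fall of the family. Its signal was 1.41, 0.613 and 0.625% in H/R replicates 1 to 3, against 32.5, 20.2 and 20.0% in control replicates 1 to 3. The groups were far apart, and within each group array 1 was the higher. The change was -4.77 ± 0.45 (95% confidence interval -5.94 to -3.60, limma adjusted p = 0.00514), so the H/R signal was 0.0366 of the control signal. None of the 9998 genes tested had a lower fitted change. The H/R scans read 25.01, 15.7 and 16.5 intensity units for Dusp6, where the dimmest probe scored well above background read 8.48, 7.23 and 8.47 units, so the H/R level lay close to the limit of detection. The size of the change rested on single arrays: it was -5.37 without H/R array 1, -4.18 without H/R array 2, -4.42 without control array 1 and -5.12 without control array 2, with limma adjusted p of 0.0168 to 0.0244.

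Dusp5, whose product is a nuclear phosphatase that acts on ERK and holds it in the nucleus, fell as well and with little spread. It was read at 62.9, 60.7 and 60.8% in H/R, against 181, 203 and 203% in control. The change was -1.63 ± 0.11 (interval -1.90 to -1.36, limma adjusted p = 0.00244), and the control signal was 3.10-fold that of H/R. Of the genes tested, 54 had a lower change. The 2 scans of 1 array differed by 0.00073 in H/R and 0.00096 in control on the log2 scale, so scan noise was small beside the group difference.

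Dusp9, the remaining ERK-directed gene with a probe, best known from placenta, was dim. It was well above background in 2 of 3 H/R scans and 0 of 3 control scans. Its readings were 0.616, 0.723 and 0.607% in H/R and 0.612, 0.440 and 0.278% in control, and the ranges of the groups overlap, since control replicate 1 lies above H/R replicate 3. The H/R mean was 1.22-fold an upper limit for control, which is no evidence of a rise given this overlap. For this limit each control scan was set to the larger of the probe's reading and the faintest signal that counts as well above background there. The ratio leaves out the spread between arrays. In a fit with no filter on dim probes the change was 0.47 ± 0.31 (limma adjusted p = 0.446).

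Of the p38/JNK-directed genes, Dusp10, which encodes MKP-5, fell most. Its signal was 19.7, 18.5 and 18.7% in H/R, against 32.0, 31.1 and 31.3% in control. The groups did not overlap and the replicates lay close together. The change was -0.72 ± 0.09 (interval -0.97 to -0.48, limma adjusted p = 0.00992), and 4.75% of genes tested had a lower change. The call was lost without H/R array 1 (-0.76, adjusted p = 0.0555) and without H/R array 2 (-0.68, adjusted p = 0.0699), fits in which the lone H/R array is assumed to vary like the control arrays.

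Dusp8, a phosphatase gene best known from brain and heart, fell less. It was read at 2.67, 2.74 and 2.84% in H/R, against 3.65, 4.18 and 3.92% in control, with no overlap. The change was -0.50 ± 0.10 (interval -0.76 to -0.23, limma adjusted p = 0.0302). The call was lost when any 1 of the 4 arrays was left out, with changes of -0.57 to -0.42 and adjusted p of 0.0571 to 0.138. Under normexp, another background correction, the change turned to 0.80 (limma adjusted p = 0.540). The median change of all probes also moved up in that setting, to 0.34 from 0.07.

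Dusp16, which encodes the JNK phosphatase MKP-7, did not pass. It was read at 367, 360 and 358% in H/R and at 397, 415 and 408% in control. The change was -0.15 ± 0.09 (interval -0.39 to 0.08, limma adjusted p = 0.267). Every H/R scan was below every control scan, and the interval of the change includes 0.

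Dusp1, which encodes the nuclear phosphatase MKP-1 and is a stress-induced early gene, did not pass. It was read at 768, 771 and 783% in H/R and at 608, 662 and 682% in control. The change was 0.27 ± 0.10 (interval 0.01 to 0.54, limma adjusted p = 0.114), with every H/R scan above every control scan. Dusp2, a phosphatase gene best known from lymphocytes, was well above background in 1 of 3 H/R scans and 0 of 3 control scans. Its readings of 0.157, 0.367 and 0.578% in H/R overlapped those of 0.416, 0.145 and 0.140% in control, and no fold is given.

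**Figure D2:**
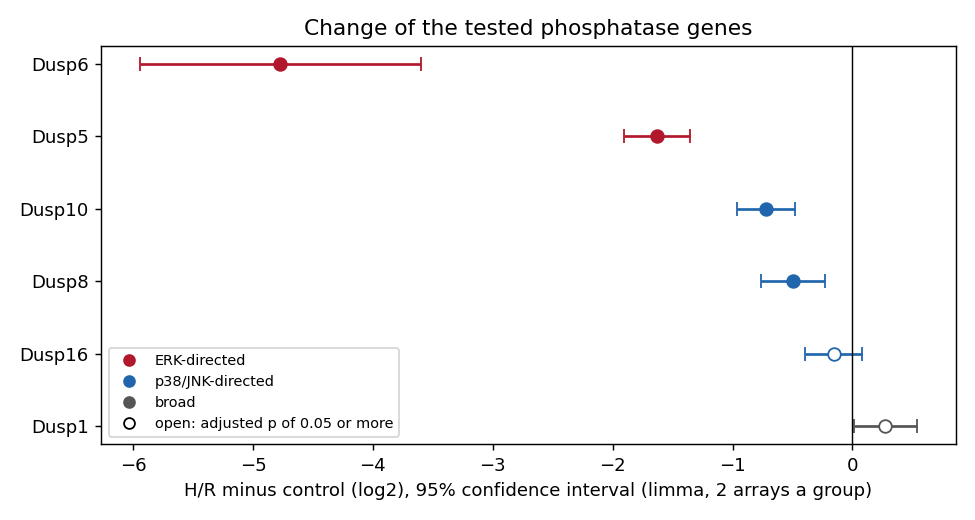
Change of the 6 tested genes, H/R minus control on the log2 scale, with 95% confidence intervals from limma; filled points passed at an adjusted p under 0.05. The intervals of Dusp6 (-5.94 to -3.60) and Dusp5 (-1.90 to -1.36) share no value with each other or with those of the other 4 genes.

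Scan and array slide were examined because the second scan holds replicate 3 of both groups. The headers give 1 slide with a different position for each array, and the effect of position cannot be told apart from that of group. Within the first scan the changes of Dusp6, Dusp5, Dusp10 and Dusp8 were -4.78, -1.63, -0.73 and -0.53 (limma adjusted p of 0.00253 to 0.0299). Within the second scan, which holds 1 file per group and gives no test, they were -4.999, -1.74, -0.74 and -0.47. With the 6 scans as separate samples and the scan as a block they were -4.85, -1.67, -0.73 and -0.51, and Dusp16 (-0.17, limma adjusted p = 0.0448) and Dusp1 (0.25, limma adjusted p = 0.0212) also passed, though that fit counts 2 scans of 1 array as independent.

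The calls depended on the signal used. With normexp on median spot signals and an offset of 50 units, in place of the deposited processed signal, 0 of 15899 probes passed in limma, and 2020 had an unadjusted p under 0.05. Dusp6 then changed by -1.81 and Dusp5 by -1.49 (limma adjusted p = 0.534 and 0.281). The offset is larger than the 15.7 to 25.01 processed units of Dusp6 in H/R scans. By itself it shrinks the log2 change of so dim a probe. With no filter on dim probes Dusp6 and Dusp5 passed, and Dusp10 (limma adjusted p = 0.0664) and Dusp8 (0.122) did not.

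**Figure D3:**
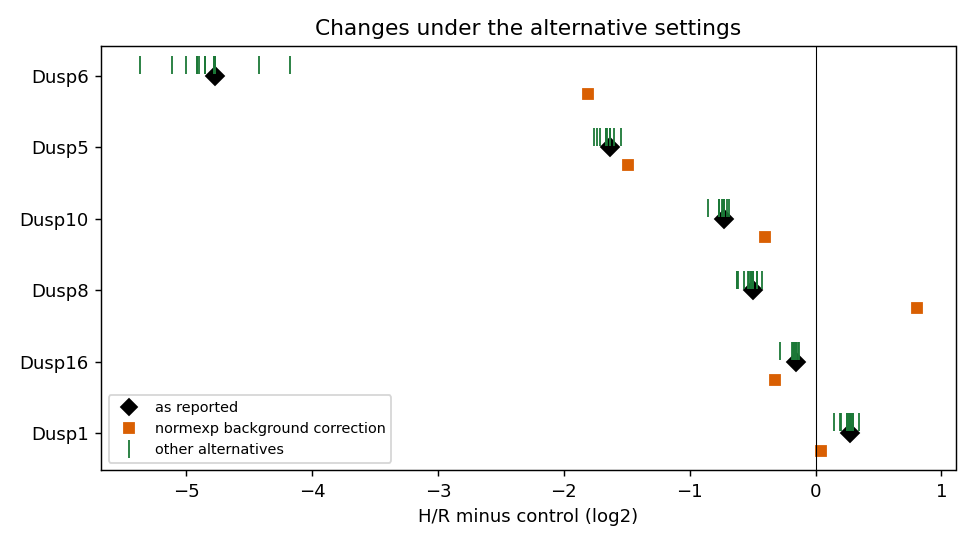
Change of the 6 tested genes, H/R minus control on the log2 scale, as reported (diamonds), after normexp background correction (squares) and under each other alternative (ticks). Dusp5 stays between -1.76 and -1.49, Dusp6 is at -1.81 after normexp against -4.77 as reported, and Dusp8 turns to 0.80 after normexp.

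The ERK-directed and the p38/JNK-directed genes were then set side by side. Both tested ERK-directed genes fell, with a mean change of -3.20, and 2 of the 3 p38/JNK-directed genes fell, with a mean change of -0.46. Over all protein-coding genes tested 9.61% fell. Dusp8, 1 of the p38/JNK-directed genes that fell, turned to 0.80 after normexp. The difference of the class means was -2.74, against a pooled SD between arrays of 0.34. Relative to the control mean, the ERK-directed class stood at -2.89 and -3.51 in H/R arrays 1 and 2, and at 0.13 and -0.13 in control arrays 1 and 2. The p38/JNK-directed class stood at -0.45 and -0.47 in H/R arrays 1 and 2, and at -0.03 and 0.03 in control arrays 1 and 2. The gap therefore appeared in both H/R arrays, and in each class the H/R arrays lay below the control arrays. No p is given, since the genes were picked with earlier results known, the ERK-directed class holds 2 tested genes, and 2 against 2 arrays cannot give an exact two-sided permutation p below 0.333. The gap rested largely on Dusp6, whose H/R level was close to the limit of detection: it was -1.17 with Dusp5 alone. It was -1.52 with Dusp9 added at its change in the unfiltered fit, and -1.58 with Dusp1 counted as ERK-directed.

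**Figure D4:**
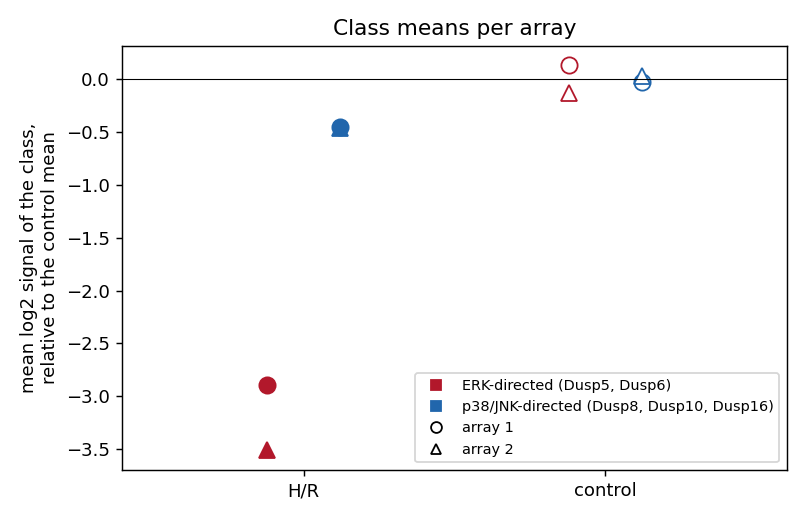
Mean log2 signal of each class on each array, relative to the mean of the control arrays, with H/R left of control. The ERK-directed class lies at -2.89 and -3.51 in H/R and the p38/JNK-directed class at -0.45 and -0.47.

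Ordered by change, the tested genes ran Dusp6, Dusp5, Dusp10, Dusp8, Dusp16, Dusp1. Neighbours in this order were compared by the difference of their log2 values on each array. Dusp6 changed by -3.14 relative to Dusp5 (pooled SD between arrays 0.71), and Dusp5 by -0.91 relative to Dusp10 (SD 0.10). Dusp10 and Dusp8 were closest, at -0.23 (SD 0.12): on the H/R arrays the difference was -0.16 and -0.30, against 0.09 and -0.09 on the control arrays, a smaller gap than in any other pair. Dusp8 differed from Dusp16 by -0.34 (SD 0.07) and Dusp16 from Dusp1 by -0.43 (SD 0.05). The sign of each difference follows from the ordering and is no result.

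Among genes of the kinases that these phosphatases act on, Mapk3 rose, and Mapk14 and Mapk9 did not pass. Mapk3, which encodes the ERK family kinase ERK1, was read at 2204, 2223 and 2255% in H/R, against 1470, 1380 and 1363% in control, and rose by 0.65 ± 0.10 (limma adjusted p = 0.0135; 0.0759 and 0.0835 without H/R array 1 or 2). The p38α gene Mapk14 differed by -0.08 ± 0.10 (interval -0.35 to 0.19, limma adjusted p = 0.613) and the JNK2 gene Mapk9 by -0.03 ± 0.18 (interval -0.50 to 0.43, limma adjusted p = 0.911).

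Of 22 tested genes of the ERK cascade, from receptors to ERK targets, 3 rose and 2 fell (median log2 change -0.09). Over all protein-coding genes tested 16.2% rose and 9.61% fell, so the counts of this list lie near the general shares. Besides Mapk3, the receptor genes Pdgfrb and Egfr rose, by 0.51 and 0.48 (limma adjusted p = 0.0338 for both). The GTPase gene Hras fell by 0.72 (limma adjusted p = 0.0277). The calls of Pdgfrb, Egfr and Hras were each lost when any 1 of the 4 arrays was left out (limma adjusted p of 0.0538 to 0.16). Of 22 tested genes of the p38 and JNK cascades 6 rose and 2 fell (median 0.10), beside the same shares of all genes. Map2k6, which encodes the p38 kinase MKK6, was read at 4.55, 4.41 and 4.58% in H/R, against 0.691, 0.881 and 0.982% in control, where 2 of 3 scans were well above background. It rose by 2.50 ± 0.16 (limma adjusted p = 0.00255). The p38 target kinase gene Mapkapk3 rose by 0.91, the kinase gene Map3k8 by 0.83 and the JNK scaffold gene Mapk8ip1 by 0.64 (limma adjusted p of 0.00616 to 0.0146). Map3k6 fell by 0.92 and Map2k3, the p38 kinase gene for MKK3, by 0.39 (limma adjusted p = 0.00654 and 0.0462). With no filter on dim probes Mapkapk3 and Map3k6 did not pass (limma adjusted p = 0.0515 and 0.0520). The call of Map2k3 was lost without any 1 of the 4 arrays (limma adjusted p of 0.0981 to 0.206) and with the replicate block (0.0649), and those of Map3k8 and Mapk8ip1 without either H/R array (0.0512 to 0.0845).

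Other phosphatases were counted in the same way, and their difference from the family was not tested. Of 9 tested members among the atypical and other dual-specificity phosphatases 3 rose and 0 fell (median 0.07), where 16.2% of all genes rose and 9.61% fell. These were the catalytically inactive Styxl1 (0.99 ± 0.11, limma adjusted p = 0.00743), Dusp12 (0.81 ± 0.20, limma adjusted p = 0.0428) and Dusp19 (0.42 ± 0.09, limma adjusted p = 0.0342). Dusp12 was read at 83.4, 71.0 and 72.1% in H/R, against 37.0, 54.3 and 50.2% in control. The call of Dusp19 was lost without any 1 of the 4 arrays (limma adjusted p of 0.0696 to 0.154), that of Dusp12 without either H/R array or control array 1 (0.0872 to 0.16) and with the replicate block (0.0548), and that of Styxl1 without H/R array 1 (0.0512). Of 7 other phosphatase genes whose products act on MAP kinases, all tested, 0 rose and 1 fell (median -0.14). That gene, Ptpn7, fell by 0.66 ± 0.13 (limma adjusted p = 0.0279), a call lost without either H/R array or control array 1 (0.0667 to 0.122).

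Genes known as feedback inhibitors or transcriptional targets of ERK signalling also fell. Of 9 tested in a list chosen with earlier results of these data known, 0 rose and 7 fell (median -1.36), beside 9.61% of all genes that fell. The list holds Sprouty inhibitors and also ETS factors and a cyclin that are induced downstream of ERK. The Sprouty gene Spry4 was read at 177, 181 and 182% in H/R, against 592, 612 and 604% in control, and the ETS factor gene Etv5 at 131, 133 and 132% in H/R, against 386, 404 and 408% in control. The changes of Etv1, Phlda1, Etv5 and Spry4 lay between -1.74 and -1.40, near that of Dusp5, and that of Dusp6 was farther from 0 than any of these. That distance depended on the H/R level of Dusp6, close to the limit of detection. After normexp Dusp6 (-1.81) lay near Spry4 (-1.77), Phlda1 (-1.74) and Etv5 (-1.67), and Etv1 turned to 0.06.

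**Figure D5:**
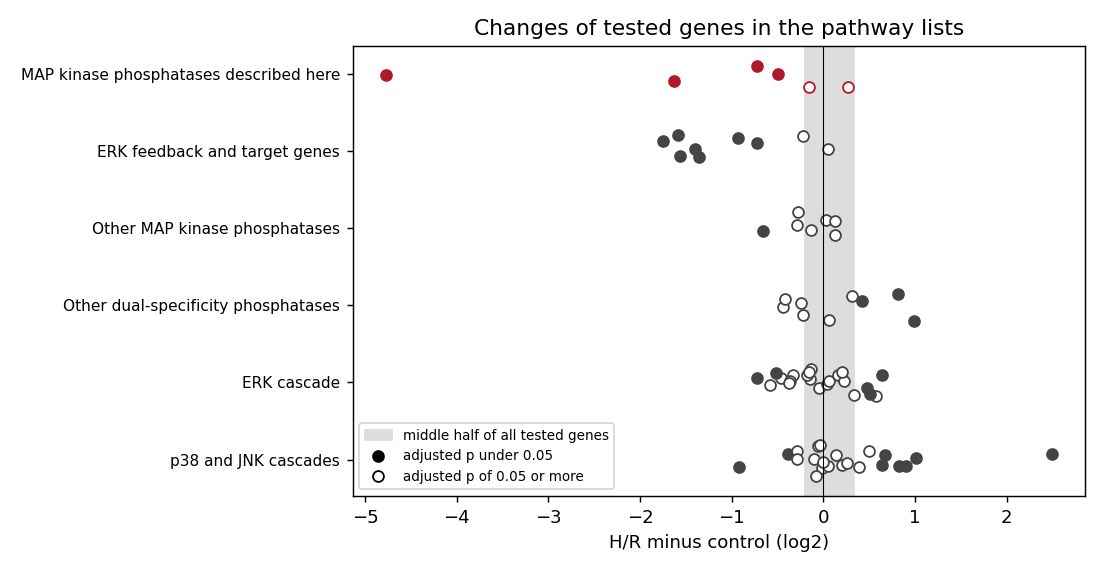
Change of each tested gene, H/R minus control on the log2 scale, for the phosphatase family and 5 pathway lists; filled points passed at an adjusted p under 0.05 and the grey band holds the changes of all tested genes between the quartiles (-0.20 to 0.33). The family and the list of ERK feedback and target genes hold points below -1.3, and the cascade lists have points on both sides of 0.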

How the data were processed

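RNA of 6 samples was measured on 1-colour (Cy3) Agilent arrays. The deposited scanner files hold processed intensity values, which the authors made with Agilent Feature Extraction 11.0.1.1 per the submitters' processing notes; the correction settings are not given in the sources used here. Flags in the deposited files, another kind of value, mark outlier and well-above-background spots. A deposited table of log2 values (16841 probes, column medians 9.18 to 9.19, normalization not given in the sources used here) served as an alternative. Per array, 58.4 to 71.1% of 42136 spots were well above background and 0 were saturated.

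After removal of control and outlier spots, each probe's spots were averaged as log2 values. The 75th percentile over 24578 usable probes was then subtracted (1769 to 2634 units in H/R, 2087 to 2455 in control). The 15899 probes that every scan of 1 group or both scored well above background were tested with limma 3.58.1 in R 4.3.3 (2 residual and 2.86 prior degrees of freedom), after averaging replicates 2 and 3. Tables were made in Python 3.11.15 (pandas 2.3.3, matplotlib 3.10.9), and the fit was tested on simulated data. Symbols came from accessions through a GRCr8 table (14274 of 15323 mRNA probes matched). A gene is its probe of highest mean signal.

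The members and lists were chosen with earlier results of these data known. Named are all members, up to 4 called genes per list and direction, and the kinase genes Mapk3, Mapk9 and Mapk14, besides markers; some genes that this rule names are not reported here. Alternatives changed scaling, background correction, filters, outlier spots, arrays and blocks. Normexp used median spot signals.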

Additional observations from a re-analysis of the deposited data

How the results depend on the processing

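The number of members that fell, 4, stayed within 3 to 5 under 11 of 15 alternatives. It was 2 with no filter on dim probes, where 594 of 24578 probes passed, 0 after normexp, where 0 of 15899 probes passed and 2020 had an unadjusted p under 0.05 in limma, and 2 to 3 when 1 array was left out (2 without either H/R array). The number that rose, 0, was 1 with the 6 scans as separate samples, with or without the scan as a block. The class difference of -2.74 was -1.67 after normexp and -1.58 with Dusp1 in the ERK-directed class. It was -1.17 without Dusp6 and -1.52 with Dusp9 added, both chosen after seeing the data, -3.04 to -2.44 without 1 array, and -2.90 to -2.70 under the others.

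After normexp Dusp6 changed by -1.81 and Dusp5 by -1.49 (limma adjusted p = 0.534 and 0.281). The median change of all probes was 0.34 in that setting, against 0.07 as reported. Signs turned there for Dusp8 (0.80), Ptpn7 (0.49), Etv1 (0.0626) and Hras (0.0208). Mapk9, not called, turned to 0.71 after normexp, 0.0373 with 6 scans with or without the scan block, 0.23 within the second scan, and ran from -0.0653 without H/R array 1 and 0.0022 without H/R array 2 to 0.21 without control array 1 and -0.27 without control array 2. Scaling to the median moved the median of all probes from 0.07 to -0.06, with 1566 higher and 2253 lower calls, against 2358 and 1411, and the same 4 members passed. Replicate numbers are shared but no label pairs them: array differences correlated across probes at r = 0.153 between groups, and with the replicate block 4 members fell, as without it, but Dusp12 (limma adjusted p = 0.0548) and Map2k3 (0.0649) did not pass. Calls were also lost for Egfr (0.0954, 0.0815 and 0.0814 with the deposited values, quantile normalization and median scaling), Dusp12 (0.0763, 0.0647 and 0.0546 there, 0.0573 within the first scan), Dusp19 (0.0521 with the deposited values, 0.115 with median scaling) and Pdgfrb (0.0748 with median scaling). With no filter on dim probes these genes and Hras, Map2k3 and Ptpn7 did not pass (limma adjusted p of 0.113 to 0.16). Nor did Mapk3 (0.0786), Mapkapk3 (0.0515), Map3k6 (0.0520), Map3k8 (0.0561), Mapk8ip1 (0.0824) and Styxl1 (0.0548). Map2k6, Spry4, Etv5, Phlda1 and Etv1 passed there (0.0316 to 0.0495). With 2 arrays per group, changes of the size of Dusp16 and Dusp1 were not resolved.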
